A study of Mus musculus with 10 samples.

Results

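Complement and coagulation factors are plasma proteins that the liver makes and secretes, and 41 of their genes were examined here in mouse livers lacking the histone variants macroH2A1 and macroH2A2. The genes were taken from a list of names, and each was read from the probe set whose platform annotation gives that gene alone. Of the 41, 37 had a probe set of their own, among 22180 such genes in the data. Masp2 and Klkb1 occurred only on probe sets shared with another gene, and C3 and Cpb2 were on no named probe set. Among them, the terminal complement gene C6 fell in double knockout livers, to 61.2% of its wild-type level, and the other 36 did not pass the test.

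The livers came from macroH2A1 macroH2A2 double knockout mice and from wild-type mice. All were male, of the strain 129/S6 (taconic), 2 months old and fasted for about 16 h before they were killed in the morning. There were 5 arrays per group. The labels do not say how the alleles were made or whether they act in all cells. The values are log2 expression levels of whole liver, in which fewer cells of a type and less RNA per cell cannot be told apart.

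Complement is a cascade of plasma proteases and pore-forming proteins. The classical route starts with antibody-bound C1q and its proteases, the lectin route with sugar-binding lectins and theirs, and the alternative route with C3, factor B and properdin. All routes cut C5, after which C6, C7, C8 and C9 assemble a pore in the target membrane, the membrane attack complex. Coagulation is a second protease cascade that ends in fibrin, and both cascades are held back by inhibitors, many of them serpins. Hepatocytes are the main source of most of these proteins, while macrophages and endothelial cells make some of them.

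Sequences directly upstream of C6 and of the paired genes C8a and C8b are shown because the C6 difference was the result that passed and C8a and C8b act beside it in the same complex. The 3 stretches are the 250 bases before the annotated start, from RefSeq on the build GRCm38.p6, written 5′ to 3′ on the gene's strand. C6 lies at chr15:4726960-4727209 on the + strand, C8a at chr4:104876399-104876648 on the - strand and C8b at chr4:104766067-104766316 on the + strand. Capitals mark a match to GTTAAT, the core motif of the liver factor HNF1, on either strand.
C6: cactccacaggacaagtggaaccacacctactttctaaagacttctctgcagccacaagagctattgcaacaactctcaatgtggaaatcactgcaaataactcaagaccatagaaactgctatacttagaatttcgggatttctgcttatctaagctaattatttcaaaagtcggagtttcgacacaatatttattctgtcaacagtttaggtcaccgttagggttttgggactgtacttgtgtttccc
C8a: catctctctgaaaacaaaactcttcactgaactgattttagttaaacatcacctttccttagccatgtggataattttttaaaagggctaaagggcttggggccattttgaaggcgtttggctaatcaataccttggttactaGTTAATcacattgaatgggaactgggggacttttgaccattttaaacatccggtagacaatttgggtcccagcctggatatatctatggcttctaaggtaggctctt
C8b: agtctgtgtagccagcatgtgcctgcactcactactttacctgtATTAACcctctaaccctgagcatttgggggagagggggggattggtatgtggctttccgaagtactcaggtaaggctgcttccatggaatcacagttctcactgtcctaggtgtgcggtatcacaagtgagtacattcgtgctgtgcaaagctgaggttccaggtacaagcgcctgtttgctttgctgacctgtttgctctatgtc
Windows of this kind from RefSeq were examined for 32 of the 41 genes, and the other genes were left out of the motif counts. GTTAAT or its reverse complement stood in 10 of these 32 (31.2%), against 6.43% of all 32851 windows in the table. The 10 were C1ra, C4bp, C7, C8a, C8b, Cfp, F13b, Fga, Hc and Vtn, so 4 of the 7 terminal genes held it and the C6 window did not. The C/EBP motif TTGCNNAA stood in 7 of the 32, against 9.56% of all windows, and the STAT5 motif TTCNNNGAA in 6, against 7.02%. The TATAAA motif stood in 4, against 12.4% of all windows. All were searched on both strands, and matches of different motifs may overlap. The C6 window held 0 of these 4 motifs. These are matches of letters in short windows and were not tied to any value below.

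C6, which joins C5b as the first step of pore assembly, had log2 levels of 10.83, 11.08, 11.06, 10.61 and 10.75 in double knockout livers, against 11.39, 11.65, 11.75, 11.53 and 11.55 in wild-type livers. Every double knockout array lay below every wild-type array. The means were 10.87 ± 0.20 and 11.58 ± 0.14 (SD, n = 5 each), a log2 difference of -0.71 (SE 0.10, 95% confidence interval -0.91 to -0.50, limma adjusted p = 0.00685). C6 was thus 1 of 37 genes called, where 0.884% of the 25335 probe sets tested were called in either direction, 0.553% lower and 0.332% higher. This balance turned without double knockout 1 or without wild type 1, where higher calls outnumbered lower ones. Markers of pancreas acinar cells were high on 4 arrays, double knockout 1 and 2 and wild type 4 and 5. Without these 4 arrays the C6 difference was -0.79 (SE 0.13) and was not called (limma adjusted p = 0.0775). In the 10 fits without a single array the C6 difference lay between -0.76 and -0.64, with limma adjusted p from 0.00702 to 0.027.

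The other terminal genes showed smaller or opposite differences, and 0 of these 6 were called in limma. With C6, 5 of the 7 were lower at an unadjusted p under 0.05, the others being Hc, C8a, C8g and C9. Hc, the gene of complement C5, had levels of 12.68, 12.80, 12.69, 12.65 and 12.74 in double knockout livers, against 12.78, 12.81, 12.85, 12.85 and 12.83 in wild-type livers. The Hc difference was -0.11 (SE 0.04, limma adjusted p = 0.214), and only double knockout 2 lay within the wild-type range. C9, whose product polymerises into the wall of the pore, had levels of 12.29, 12.24, 12.18, 12.02 and 11.94 in double knockout livers, against 12.20, 12.35, 12.38, 12.29 and 12.40 in wild-type livers. Its difference was -0.19 (SE 0.07, limma adjusted p = 0.229), and the groups overlapped, with wild type 1 at the bottom of its own group.

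The 3 chains of C8 differed in direction. C8a, the alpha chain, stood at 11.81, 12.09, 11.77, 11.72 and 11.88 in double knockout livers, against 11.97, 12.05, 12.04, 12.08 and 12.01 in wild-type livers, a difference of -0.17 (SE 0.06, limma adjusted p = 0.224). Double knockout 2 was the highest of all 10 arrays for C8a, while the other 4 double knockout arrays lay below all wild-type arrays. C8b, the beta chain, stood at 12.83, 12.96, 12.88, 12.87 and 12.94 in double knockout livers, against 12.73, 12.90, 12.91, 12.88 and 12.86 in wild-type livers. Its difference of 0.04 had a 95% confidence interval of -0.06 to 0.14. C8g, the gamma chain, which belongs to the lipocalin family, stood at 12.73, 12.79, 12.80, 12.79 and 12.75 in double knockout livers, against 12.92, 12.88, 12.85, 12.90 and 12.89 in wild-type livers. The C8g groups did not overlap, but the difference was small, -0.11 (SE 0.04, limma adjusted p = 0.164).

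C7, which follows C6 in the complex, was close to background in liver. Its mean level of 6.36 lay below 6.54, the 95th percentile of 1108 olfactory receptor probe sets, which served as a guide to background, and C7 was the 1 gene of the 37 below it. C7 levels were 6.70, 6.59, 6.21, 6.31 and 6.26 in double knockout livers, against 6.08, 6.18, 6.30, 6.05 and 6.90 in wild-type livers. The difference of 0.11 had a wide 95% confidence interval of -0.22 to 0.45. The 3 highest C7 arrays, double knockout 1 and 2 and wild type 5, were all among the 4 with high pancreas markers; their part in the C7 values was not tested.

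**Figure D1:**
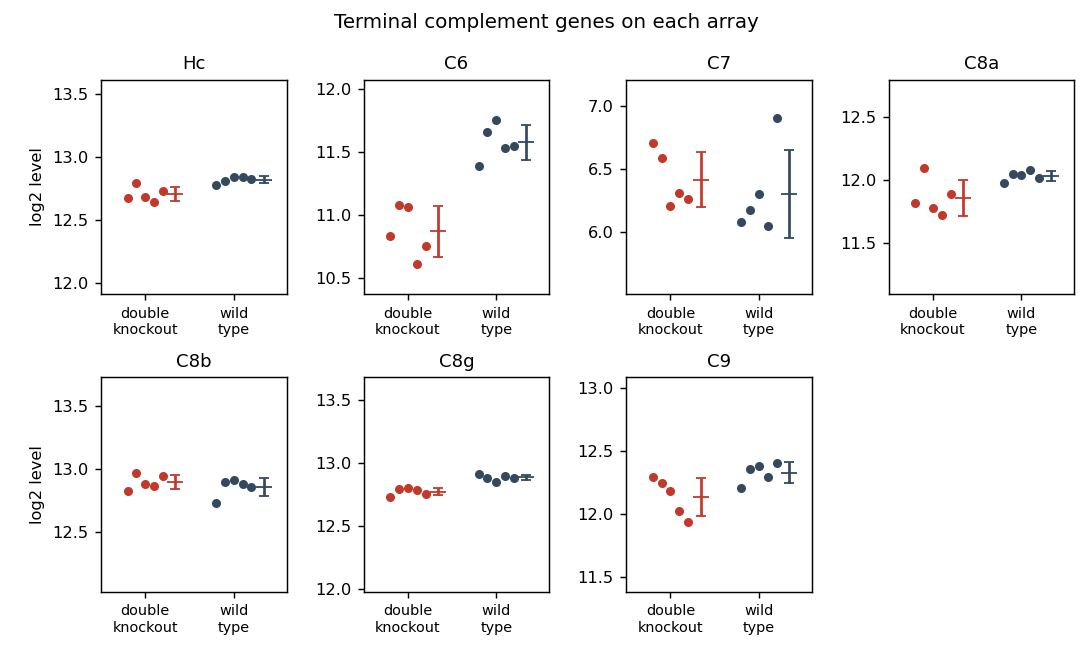
Log2 levels of the 7 terminal complement genes on each array, with double knockout on the left and wild type on the right of each panel. Points are arrays 1 to 5 of a group from left to right, bars give the mean ± SD (n = 5), and all panels span the same height on the log2 scale; C6 is the gene whose groups lie widest apart.

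Whether the C6 fall was shared was asked directly, gene by gene. The per-array difference between C6 and each of the other 6 terminal genes was compared between the groups by an exact permutation test, two-sided. The C6 change minus that of the other gene was -0.52 for C9, -0.53 for C8a, -0.59 for Hc and for C8g and -0.75 for C8b. The exact p was 0.00794 for each of these 5, the smallest that 5 arrays against 5 allow, and 0.00952 adjusted over the 6 comparisons. The sixth, with C7, does not bear on the question, because a fall of C7 could not be seen on a probe set below the background guide. C6 had been singled out by its fall in earlier results of these data, so these p-values describe the difference rather than test it afresh. Of the 36 other genes, 35 had a 95% confidence interval wholly above that of C6, the exception being F7. This too describes a gene picked for its fall, and the 35 include C7, which does not bear on the question.

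C6, C7 and C9 all lie on chromosome 15, which made it possible to look at the surroundings of C6. The 5 nearest protein-coding genes on each side that were measured by a separate probe set were examined, a choice made after the values were seen. Of these 10, 4 lay below the background guide, the nearest on either side, Plcxd3 and Mroh2b, and C7 among them. The other 6 had differences from -0.30 to 0.11. The fifth on the side of Plcxd3, Ghr, the growth hormone receptor, fell by 0.30 (SE 0.05, limma adjusted p = 0.0212), and for the remaining 5 the adjusted p was 0.237 or higher. Ghr lost its call in 6 of 21 alternatives, with limma adjusted p of up to 0.0736. These were the fits without double knockout 4, double knockout 5 or wild type 2, the fit without the 4 arrays of high pancreas markers, the fit on every probe set and the replicate block.

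Most of the 37 genes had slightly lower means in double knockout livers. This held for 32 of 37 (86.5%), against 51.5% of all probe sets tested, and 19 (51.4%) were lower at an unadjusted p under 0.05, against 7.60% of all. The median log2 difference of the 37 was -0.10, against -0.003 over all tested probe sets. In 7 of 37 genes (18.9%) every double knockout array lay below every wild-type array, against 2.15% of all probe sets. In 0 of 37 did every double knockout array lie above every wild-type array, against 1.75% of all. These genes were strongly expressed, and 29 of them had a mean level of at least 11. Among the 1237 tested probe sets at such levels 54.4% had lower means and 16.9% were lower at an unadjusted p under 0.05, against 27 (93.1%) and 17 (58.6%) of these 29 genes. The 37 genes were read on the same arrays and are not separate observations, so the shares above only describe them. Apart from C6 the differences ran from -0.35 to 0.24, with limma adjusted p from 0.10 to 0.994.

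**Figure D2:**
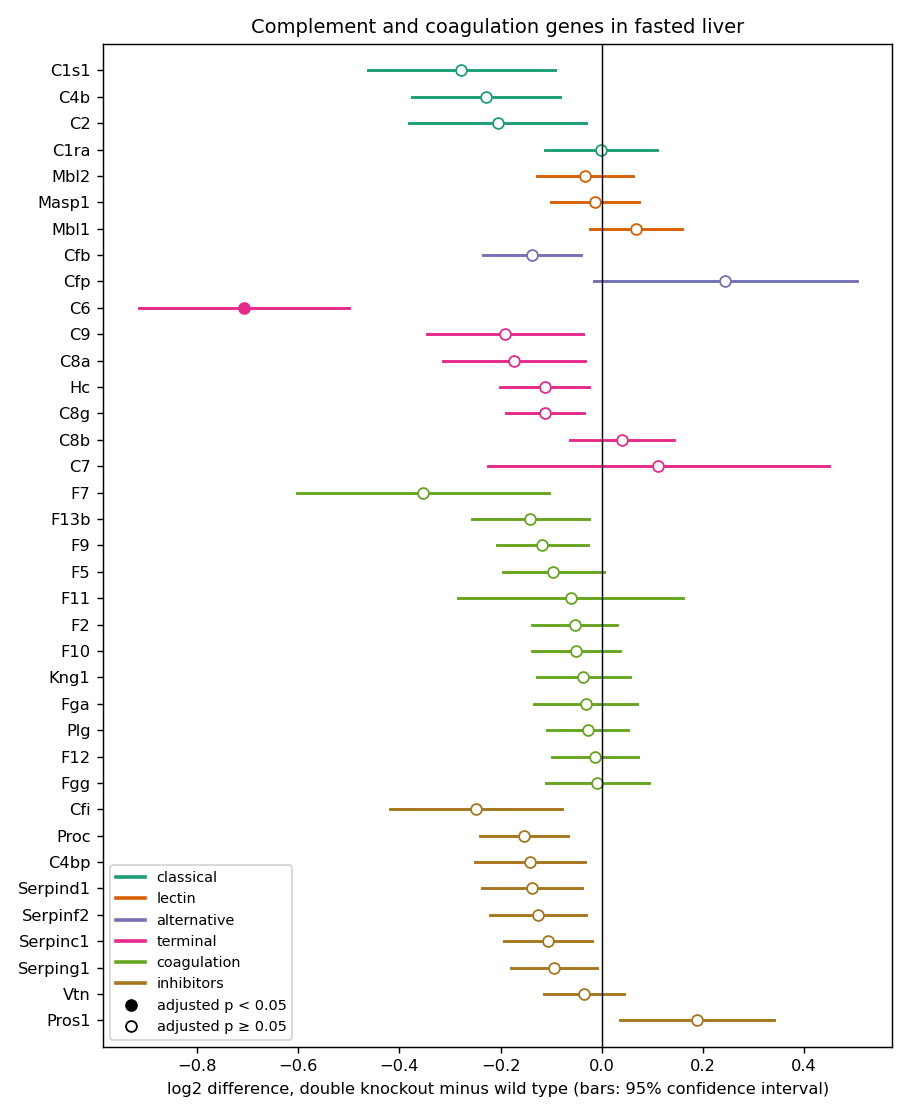
Log2 difference of each of the 37 genes, double knockout minus wild type, on the horizontal axis, grouped by pathway from top to bottom. Points are limma estimates from 5 arrays per group and bars are 95% confidence intervals; the filled point, C6 at -0.71, is the 1 gene with an adjusted p under 0.05.

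Of the classical route, 4 of 4 genes had lower means and 3 were lower at an unadjusted p under 0.05. C4b, whose product becomes part of the C3-cutting enzyme, had levels of 12.25, 12.45, 12.13, 12.14 and 12.41 in double knockout livers, against 12.46, 12.51, 12.59, 12.50 and 12.47 in wild-type livers. The C4b groups did not overlap, with a difference of -0.23 (SE 0.07, limma adjusted p = 0.135), although double knockout 2 came within a few hundredths of the lowest wild-type array. C2, the protease partner of C4b, had a difference of -0.21 (SE 0.08, limma adjusted p = 0.247). For C1s1, one of the 2 proteases of the C1 complex, the difference was -0.28 (SE 0.08, limma adjusted p = 0.151), and a second C1s1 probe set lay below the background guide (mean level 6.23). C1ra, which encodes the other C1 protease, stood at 8.41 in both groups, and the 95% confidence interval of its difference was -0.11 to 0.11.

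Lectin route genes differed little. Mbl1 and Mbl2, mannose-binding lectins, had differences of 0.07 and -0.03, and Masp1, their associated protease, had -0.01, with 0 of the 3 at an unadjusted p under 0.05. The 95% confidence intervals of the 3 lay between -0.13 and 0.16. The probe set that Masp2 shares with Tardbp had a difference of -0.07 (SE 0.04, limma adjusted p = 0.427).

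In the alternative route the 2 measured genes had opposite signs. Cfb, factor B, which is made by hepatocytes and lies beside C2, had levels of 11.60, 11.74, 11.59, 11.61 and 11.64 in double knockout livers, against 11.70, 11.77, 11.83, 11.83 and 11.74 in wild-type livers. The Cfb difference was -0.14 (SE 0.04, limma adjusted p = 0.168), with double knockout 2 again inside the wild-type range. Cfp, properdin, which is made by myeloid cells, had levels of 9.02, 9.45, 9.15, 9.09 and 8.97 in double knockout livers, against 8.74, 8.69, 9.03, 9.27 and 8.74 in wild-type livers. The Cfp difference was 0.24 (SE 0.12, limma adjusted p = 0.362), and wild type 4 lay above 4 of the double knockout arrays.

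Coagulation genes all had lower means, 12 of 12, but 3 were lower at an unadjusted p under 0.05. F7, factor VII, which starts coagulation with tissue factor, had the second largest negative difference of the 37 genes. Its levels were 11.03, 11.03, 11.09, 10.66 and 10.47 in double knockout livers, against 11.38, 11.12, 11.17, 11.28 and 11.11 in wild-type livers. The F7 groups did not overlap, by a few hundredths only, and double knockout 4 and 5 lay well below the rest. The difference was -0.35 (SE 0.11, limma adjusted p = 0.17), with a 95% confidence interval of -0.60 to -0.10. F9, factor IX, deficient in haemophilia B, and F13b, the carrier subunit of the fibrin-linking factor XIII, had differences of -0.12 (SE 0.04) and -0.14 (SE 0.05).

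The common end of the cascade had small differences, the largest being that of F5. F10 and F2, the zymogens of factor Xa and thrombin, had -0.05 each, and the cofactor gene F5 had -0.10 (SE 0.05). The fibrinogen chain genes Fga and Fgg had -0.03 and -0.01, and Plg, plasminogen, had -0.03. Among the contact factors, F12 had -0.01, Kng1, kininogen, -0.04 and F11 -0.06, and the probe set that Klkb1, prekallikrein, shares with Cyp4v3 had -0.05. The neighbours F7 and F10 on chromosome 8 thus had differences of -0.35 and -0.05; the contrast between them was not tested.

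Inhibitors had lower means in 8 of 9 genes, and 7 were lower at an unadjusted p under 0.05. Cfi, the protease that inactivates C3b and C4b, had levels of 10.90, 11.29, 10.91, 10.89 and 10.94 in double knockout livers, against 11.11, 11.17, 11.29, 11.33 and 11.27 in wild-type livers. Double knockout 2 stood with the wild-type arrays, and the other 4 lay below all of them. The Cfi difference was -0.25 (SE 0.08, limma adjusted p = 0.159), and it was called without double knockout 2, with -0.32 (SE 0.05, limma adjusted p = 0.0237). C4bp, the C4b-binding protein that assists Cfi, had -0.14 (SE 0.05), and Serping1, the C1 inhibitor, had -0.09 (SE 0.04). Vtn, vitronectin, which binds the forming pore, had -0.04 (95% confidence interval -0.11 to 0.04).

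Of the inhibitors of coagulation, Proc, protein C, had the lowest p of the 37 genes after C6. It had levels of 12.52, 12.44, 12.50, 12.39 and 12.44 in double knockout livers, against 12.64, 12.64, 12.60, 12.57 and 12.61 in wild-type livers, with no overlap and a difference of -0.15 (SE 0.04, limma adjusted p = 0.10). Pros1, protein S, the cofactor of protein C, had a difference of the opposite sign. Its levels were 9.89, 9.86, 9.82, 9.79 and 9.72 in double knockout livers, against 9.42, 9.58, 9.82, 9.72 and 9.58 in wild-type livers, a difference of 0.19 (SE 0.07, limma adjusted p = 0.225). Pros1 was the 1 gene of the 37 higher at an unadjusted p under 0.05, against 7.52% of all probe sets. Protein S is made by endothelial cells and macrophages as well as by hepatocytes.

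The serpins lay close together. Serpinc1, antithrombin, had levels of 13.16, 13.19, 13.15, 13.15 and 13.16 in double knockout livers, against 13.36, 13.28, 13.26, 13.24 and 13.20 in wild-type livers, with no overlap and a difference of -0.11 (SE 0.04, limma adjusted p = 0.23). Serpinf2, the plasmin inhibitor, had no overlap either, with -0.13 (SE 0.04), and Serpind1, heparin cofactor II, had -0.14 (SE 0.05).

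Arrays of the double knockout group did not contribute equally. Besides C6, 18 genes were lower at an unadjusted p under 0.05. They were picked on these same arrays, a choice that favours double knockout arrays below the wild-type range, so the counts only describe them. Double knockout 2 reached or passed the lowest wild-type array in 10 of these 18 and was the highest of its group in 12. The lowest wild-type array was reached or passed in 3 of the 18 by double knockout 1, in 1 each by double knockout 3 and 5 and in 0 by double knockout 4, and double knockout 4 was the lowest of its group in 7. In the wild-type group, array 1 was the highest in 8 of the 18 and the lowest in 7. Without double knockout 2, 32 of 37 genes had lower means and 19 were lower at an unadjusted p under 0.05. Without the 4 arrays of high pancreas markers the counts were 31 and 18.

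**Figure D3:**
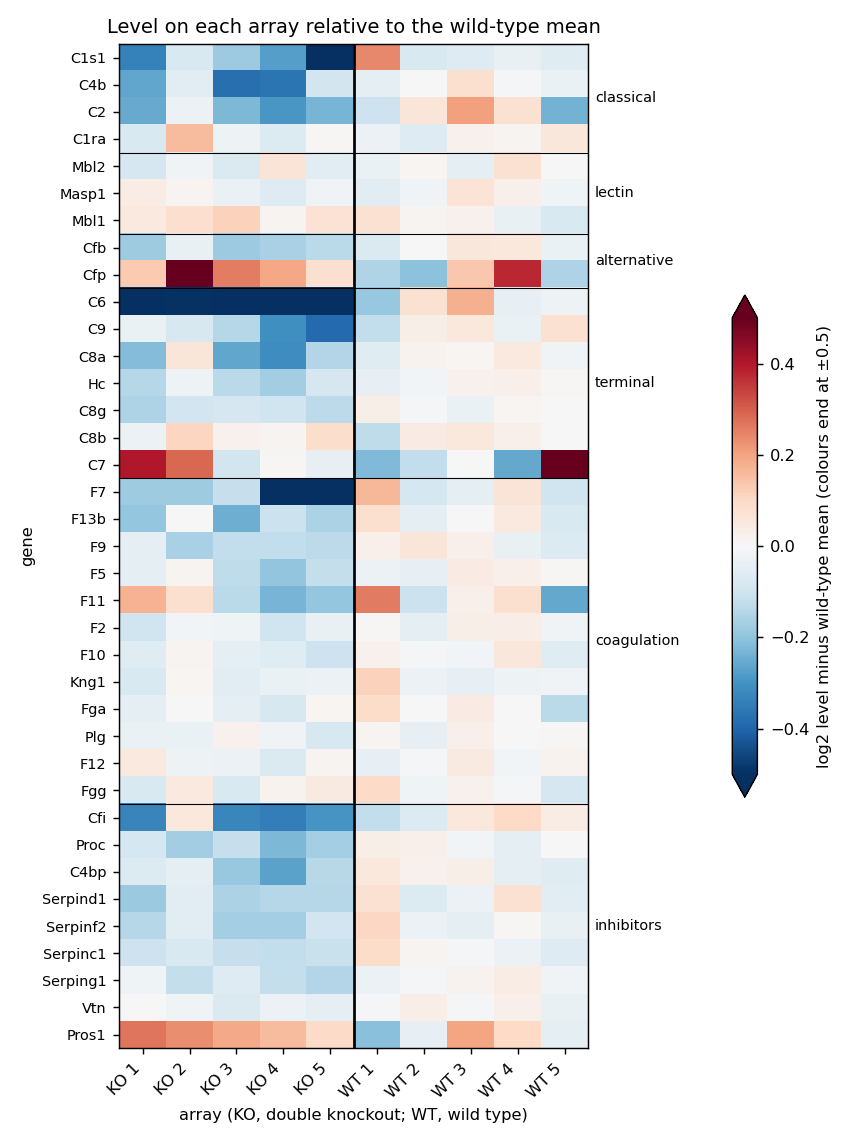
Level of each of the 37 genes on each array minus the wild-type mean of that gene, on the log2 scale, with double knockout arrays (KO 1 to 5) left of the line and wild-type arrays (WT 1 to 5) right of it. Blue is lower and red is higher, and the colours end at ±0.5; C6 is beyond the blue end on 4 of the 5 double knockout arrays and just inside it on KO 2, and KO 2 is the highest double knockout array in 12 of the 18 other genes lower at an unadjusted p under 0.05.

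Other genes of the 2 cascades were read from further lists, and 0 of their 54 measured members were called in limma, against 0.884% of all probe sets. Of 13 other soluble complement genes measured on separate probe sets, 9 had lower means, and 4 were lower and 3 higher at an unadjusted p under 0.05. C4a, the mouse gene of the sex-limited protein and a close relative of C4b, had levels of 7.53, 7.58, 7.58, 7.12 and 6.90 in double knockout livers, against 7.73, 8.17, 7.79, 8.20 and 7.83 in wild-type livers. The C4a groups did not overlap, and the difference was -0.60 (SE 0.14, limma adjusted p = 0.0796). C4a and C4b are nearly identical in sequence, so cross-hybridisation between their probe sets is possible, and it was not tested. Of 20 other coagulation and fibrinolysis genes, 0 had an unadjusted p under 0.05, and the 2 of lowest p were Serpina10, the inhibitor of factor Xa that works with protein Z, with 0.09, and Serpina5, whose probe set lay below the background guide. Fgb, the third fibrinogen chain, named beside Fga and Fgg and not for its p, had -6e-05, with a 95% confidence interval of -0.08 to 0.08. The 6 genes of the vitamin K cycle and of factor secretion included 0 with an unadjusted p under 0.05; Ggcx, the carboxylase that many clotting factors need, had -0.06 and Lman1, a cargo receptor for factors V and VIII, had -0.04.

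The C1q chains and the lectin Fcna, which liver macrophages express, had higher means, and 0 of these 4 passed the test. C1qc, a chain of C1q, had levels of 8.49, 8.63, 8.56, 8.50 and 8.51 in double knockout livers, against 8.22, 8.26, 8.32, 8.48 and 8.29 in wild-type livers. The C1qc groups did not overlap, and the difference was 0.22 (SE 0.05, limma adjusted p = 0.0796). C1qc was called in 2 of 21 alternatives, without wild type 4 and with a filter on low levels. C1qb had 0.18 (SE 0.06, limma adjusted p = 0.168), and C1qa had 0.05 (SE 0.07). Fcna, ficolin A, a lectin of the same cells, had 0.26 (SE 0.08, limma adjusted p = 0.142), and Vsig4, a complement receptor of Kupffer cells, had 0.23 (SE 0.09, limma adjusted p = 0.261). C1qa, C1qb and Fcna were picked with their values in view, from the list of 13 in which 9 had lower means. Among 15 complement receptors and membrane regulators, 8 had higher means, and Vsig4 and Cr2 were the 2 of lowest p, with the Cr2 probe set below the background guide. Not all complement receptors of myeloid cells had higher means. C5ar1, a receptor of C5a, had -0.07 (SE 0.11) and C3ar1, the receptor of C3a, had -0.04 (SE 0.05), while Itgam and Itgax, subunits of complement receptors, lay below the background guide; these 4 were chosen after their values were seen.

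Markers of Kupffer cells and macrophages also had higher means, 8 of 8, by 0.15 to 0.61. Of the 8, 2 were called, against 0.332% of all probe sets called higher, and 5 were higher at an unadjusted p under 0.05, against 7.52% of all. Cd163 rose by 0.44 (SE 0.08, limma adjusted p = 0.0284) and Marco rose by 0.61 (SE 0.13, limma adjusted p = 0.0475). Marco lost its call in 13 of 21 alternatives, with limma adjusted p of up to 0.132. Cd163 lost its call in 7 of 21, with limma adjusted p of up to 0.175. Among the 10 fits without a single array, Marco lost its call in 8 and Cd163 in 4. The mean of the 8 markers ranged from 8.72 to 9.12 on double knockout arrays, against 8.44 to 8.84 on wild-type arrays, so the arrays of the 2 groups overlapped. Their part in the values of C1qc, C1qb, Fcna, Vsig4, Cfp and Pros1 was not tested.

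**Figure D4:**
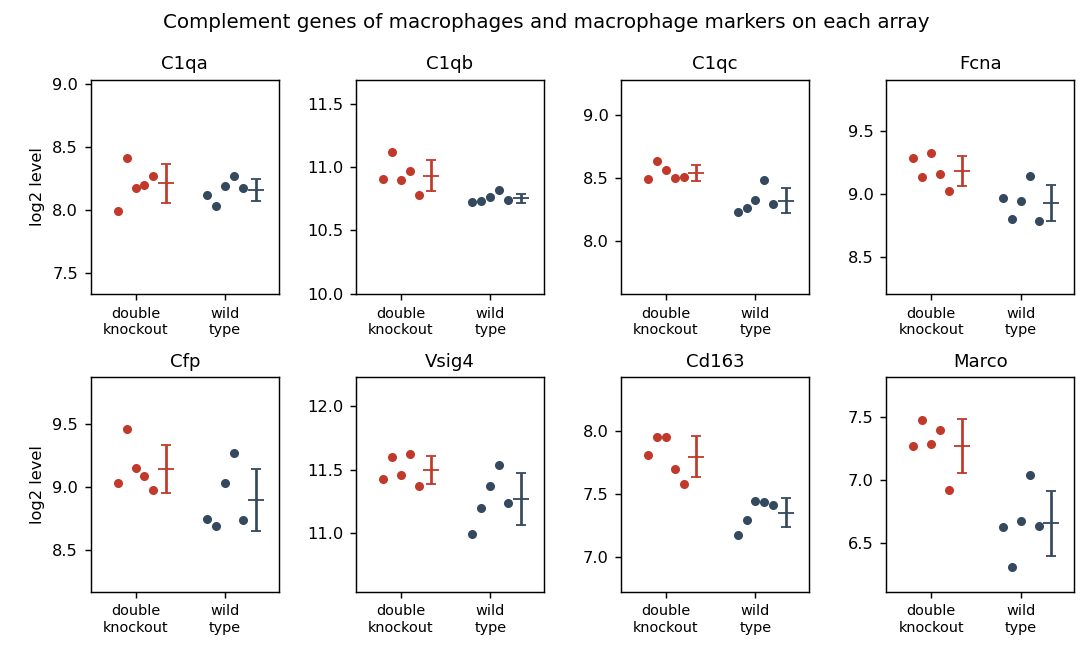
Log2 levels on each array of C1qa, C1qb, C1qc, Fcna, Cfp and Vsig4 and of the macrophage markers Cd163 and Marco, with double knockout on the left and wild type on the right of each panel. Points are arrays 1 to 5 of a group from left to right and bars give the mean ± SD (n = 5); C1qc and Cd163 are the 2 panels without overlap, and the differences run from 0.05 for C1qa to 0.61 for Marco.

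Markers of other cells were examined beside the C6 fall. The 8 hepatocyte markers, all strongly expressed, had a mean of 13.28 to 13.32 on double knockout arrays, against 13.29 to 13.35 on wild-type arrays. Of these 8, 6 had lower and 2 had higher means, and 0 had an unadjusted p under 0.05. Their differences ran from -0.11 to 0.05, and the 2 of lowest p were Serpina1a, with -0.11, and Pck1, with -0.07. Of 8 endothelial markers 6 had higher and 2 had lower means, and the 2 of lowest p, Cdh5 and Pecam1, had 0.13 and 0.12. Clec4g, named because it was the 1 of the 8 whose groups did not overlap, was lower, with -0.08 (limma adjusted p = 0.376). Of all probe sets, 2.15% were lower without overlap. The 4 platelet markers had differences from 0.004 to 0.08. Of the 6 neutrophil markers 5 lay below the background guide, S100a9 and Ly6g, the 2 of lowest p, among them. Of the 6 stellate cell and fibroblast markers 3 had lower and 3 had higher means, with a median difference of -0.001. The 2 of lowest p, Reln and Lrat, had -0.17 and -0.09. The Reln groups did not overlap, with Reln lower (limma adjusted p = 0.0796). Reln was called in 1 of 21 alternatives, with a filter on low levels (limma adjusted p = 0.0474). The 7 pancreas acinar markers averaged 8.20 to 10.47 on the 4 arrays named above and 5.93 to 6.66 on the other 6, and their part in the values was not tested.

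The knockout itself was visible for one of its targets. Macroh2a1 had a level of 9.11 ± 0.07 in double knockout and 9.60 ± 0.07 in wild-type livers (SD, n = 5 each, limma adjusted p = 0.00128), while Macroh2a2, at 6.12 ± 0.19 in double knockout and 6.32 ± 0.28 in wild-type livers (SD, n = 5 each), lay below the background guide in both, so that its loss could not be read from this probe set. The labels do not place these probe sets within or outside the deleted sequence. Over all 25335 probe sets tested, 224 were called, and array medians ranged from 6.43 to 6.46, with correlations between arrays of 0.989 to 0.995.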

How the data were processed

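The deposited table holds log2 expression levels for 41345 probe sets on 10 arrays. The submitters' processing notes name Affymetrix Expression Console as the program used, without a version or summarisation method. Array background, saturation and scan batches could not be examined from this table, and the number of arrays limits the precision.

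Probe sets were named from the platform annotation (23521 with 1 symbol, 1814 with several, 16010 with none). A gene with several probe sets was read from the one with the highest mean. RefSeq (GRCm38.p6) gave neighbouring genes and upstream sequences. The 25335 probe sets with a symbol were fitted with limma 3.58.1 under R 4.3.3 (lmFit, eBayes, two-sided) on group alone, with no filter on level and Benjamini-Hochberg adjustment over all of them. A gene was called, and "rose" or "fell" used, at an adjusted p under 0.05. The fit was tested on simulated data.

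The 41 genes, the further lists and the motifs were chosen with earlier results of these data known. Named were all of the 41, and of each further list the called members or the 2 of lowest p, with exceptions named in the text; differences of these are left out where the mean level was below the background guide. The labels do not say that samples are separate animals, so p-values measure the spread between these samples, which may be technical.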

Additional observations from a re-analysis of the deposited data

Results flagged for a closer look

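In 6 of 118 groups of 5 arrays, over 59 genes (the 37 and 22 others with levels or a difference of their own in the text), 1 array stood far from the other 4 (gap over range above 0.71), where chance gives about 5.9. Double knockout 2 was high for Cfi, at 11.29, against 10.89 to 10.94 on the other 4 double knockout arrays, and for C2, at 10.33, against 10.07 to 10.13. Wild type 1 was high for C1s1, at 8.65, against 8.34 to 8.38 on the other wild-type arrays, and for Kng1, at 12.01, against 11.85 to 11.88. It was low for C8b, at 12.73, against 12.86 to 12.91. Wild type 4 was low for Pecam1, at 8.74, against 8.91 to 8.96.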

How the results depend on the processing

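C6 kept its direction under all 21 alternatives, from -0.79 to -0.64, and its call in 20. The exception, chosen after the data were seen, was the fit that dropped the 4 arrays with high pancreas markers, giving -0.79 (limma adjusted p = 0.0775) on 6 arrays; 0 of the 37 genes were called there, and 18 were lower at an unadjusted p under 0.05. With an intensity trend 2 of the 37 were called, the second being Proc (-0.15, limma adjusted p = 0.0388). Leaving out 1 array gave 1 to 2, the second being Cfi without double knockout 2, and the other alternatives gave 1. Over the alternatives, 30 to 32 of the 37 had lower means and 14 to 20 were lower at an unadjusted p under 0.05, the lowest being without number 1 of both groups. Of 776 refitted gene differences 17 changed sign, in 8 genes with differences of at most 0.11 in size. The C6 change against the other 6 terminal genes, C7 below the background guide included, stayed between -0.98 and -0.47 without single arrays (exact permutation adjusted p from 0.0159 to 0.0317). The lower of these p-values is the smallest that the remaining arrays allow. As C6 had been singled out by its fall, they describe the difference rather than test it afresh.

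Probe sets called, 224 of 25335, were 377 with a filter on low levels, 75 with every row tested, 585 at an adjusted p under 0.1, and 64 to 253 without 1 array. Dropping wild type 2, 3 or 4 left 64, 144 or 131, and dropping double knockout 2, 3, 4 or 5 left 135, 124, 68 or 87. They were 68 without the 4 pancreas marker arrays and 613 without number 1 of both groups. Lower calls outnumbered higher ones, 140 to 84, but higher ones outnumbered lower ones by 133 to 120 without double knockout 1, by 126 to 96 without wild type 1 and by 460 to 153 without number 1 of both groups. Both groups carry numbers 1 to 5, but nothing in the labels pairs them: the correlation of same-numbered deviations ran from -0.48 to 0.13, and 0 of 5 double knockout arrays matched best the wild-type array of its number. With the replicate block 76 probe sets were called, and C6 stayed called with -0.71 (SE 0.06, limma adjusted p = 0.0138). The causes of these shifts were not tested.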
